A study of Homo sapiens with 32 samples.

Results

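The windows described here are stretches of 401 bp of accessible chromatin at the 3′ ends of protein-coding genes. A counted window was taken when its centre lay within 500 bp of the 3′ end of a protein-coding gene of GENCODE release 44 (genome build hg38), more than 1000 bp from every annotated transcript start, and outside coding sequence. Of the 212358 counted windows, 1226 met this rule, or 0.577%. They belonged to 1077 of 20046 coding genes (5.37%), of which 941 had 1 such window, 123 had 2 and 13 had 3. The rule used positions only and no measured change. Each window is named by the coding gene whose 3′ end was nearest its centre, and the name says nothing about that gene's expression, which was not analysed here.

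Accessibility was measured by ATAC-seq, in which the transposase Tn5 inserts sequencing adapters into open DNA. The cells were 1 clone, HEK_CloneZD29, of HEK293T, a human embryonic kidney line, so every library comes from the same clone. The series' design text gives ZNF143 an inducible degron tag, and so does the genotype label of replicates 1 to 8, while replicates 9 to 16 have no genotype label and carry the same clone name. Treated cells had 30 min of dTAGV-1 at 50 nM, a compound that brings a degron-tagged protein to a ubiquitin ligase. The question was which sites change soon after ZNF143 is targeted, and ZNF143 protein was not measured in the data used here.

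The labels give 32 libraries in 4 groups of 8. Counts were available for replicates 9 to 16, with 8 control libraries given DMSO and 8 libraries given dTAGV-1. Replicates 1 to 8 of both arms entered only through a list of 259926 peak summits without a value per library, and their controls are called DMSO in the titles and untreated in another label. Nothing in the labels says that the replicates were separate cultures, so p-values measure the spread between these libraries, which may be technical.

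The 3′ end of a coding gene is where the transcript is cut and polyadenylated, a step directed by a poly(A) signal hexamer, most often AATAAA or its variant ATTAAA, a short way upstream of the cut. RNA polymerase II reads on past this point before it is released, and the stretch downstream is often free of genes. ZNF143 is a zinc finger protein best known from promoters, where it shares sites with THAP11 and the cofactor HCF-1, and an extended form of its site starts with ACTACA ahead of the core. CTCF is another zinc finger protein, known for binding insulators and anchoring chromatin loops.

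The sites on which the results turn are shown first, read from hg38, 5′ to 3′ on the strand that carries the match. Of the 3′ end windows, 1115 had enough counts to test, and 4 of these were called lower in dTAGV-1 at an edgeR adjusted p under 0.05. That is 0.359%, beside 0.213% of all tested windows. Each of the 4 holds ACTACA followed, after any 2 bases, by TCCC, here called the extended element. Both strands were searched up to 100 bp from the centre, and its last letters CCC are also the first letters of the ZNF143 core. This element was chosen after the best partial core matches in the 4 windows had been seen. Capitals mark the element.
EMP3, chr19:48330237-48330266, minus strand: cccctcaagACTACATTTCCCaatatccca
IRF3, chr19:49659902-49659931, plus strand: gcttggaggACTACAACTCCCtgcagcccc
P4HA2, chr5:132190333-132190362, plus strand: actctgtaaACTACATTTCCCagattccct
XYLT1, chr16:17101878-17101907, minus strand: accacagagACTACATTTCCCagactgcct

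Another 4 windows held the same element within 100 bp of their centre and were not called. They are shown because the element alone does not separate them from the 4 above: TICAM1 and P4HA2 share every letter from ACTACA to the AG that follows TCCC.
TICAM1, chr19:4815718-4815747, plus strand: tcagaaaggACTACATTTCCCagggttcct
RTN2, chr19:45485448-45485477, plus strand: gtctaggcaACTACAAGTCCCagcaggccc
ENTPD7, chr10:99711391-99711420, plus strand: gcctcaggaACTACAGTTCCCtttctttga
IL17D, chr13:20723504-20723533, plus strand: gctccacagACTACACTTCCCcattcaacc

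The ZNF143 core without a mismatch was found in other 3′ end windows. The most accessible of these are shown. None of the 7 tested was called, and among so few a call was not likely. Capitals mark the core.
C1QTNF5, chr11:119338443-119338472, minus strand: gtgccctggcCCCAGAATGCcgcagggatc
CMTM5, chr14:23380188-23380217, plus strand: ggagagatttCCCAAAATGCgaatgctggg
PAAF1, chr11:73931406-73931435, minus strand: ccgttccttaCCCAGAATGCactccttaat

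The CTCF core was the more frequent match at 3′ ends, and the windows with the highest control signal among those that hold it had these sites. Capitals mark the CTCF core.
DENND2A, chr7:140518077-140518106, plus strand: tggcctcggCCACCAGGTGGCatcactgtc
ASCL5, chr1:201114291-201114320, minus strand: cactgctctCCACCAGATGGCctcagatac
DBN1, chr5:177456522-177456551, minus strand: acctccttgCCACCAGGGGGCgtcctcacc

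Library totals ran from 2275856 to 13671039 counts. Of these, the 3′ end windows held 0.491% ± 0.039 (SD, n = 8) in control and 0.493% ± 0.035 in dTAGV-1. Control replicate 12 was the shallowest library and stood apart: 31.8% of its counts lay in the most accessible decile of windows, against 45.9% to 49.6% in the other controls. Replicates 12 and 11 of dTAGV-1 were also low in this share, at 39.0% and 41.8%. Results that rest on these libraries are given with and without them.

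The 3′ end windows lay unevenly around the gene end. More of them were centred downstream of it, 745 or 60.8%, than upstream or at it, 481. The rule leaves out windows centred in coding sequence, and that of the gene itself lies upstream of its end. The part of this exclusion in the difference was not tested. The 100 bp on either side of the end were the emptiest, with 65 windows upstream and 73 downstream, whereas the next 100 bp downstream held 187. By annotation at the centre, 464 lay in a UTR, 556 between genes, 175 in an intron and 31 in a noncoding exon. Chromosome 19 held 115 of the windows or 9.38%, against 2.4% of all windows, and chromosome 17 held 84 or 6.85%, against 3.1%. The rule follows the ends of coding genes, and the share of coding genes on these chromosomes was not counted here. Of the 3′ end windows, 333 overlapped another counted window (27.2%) and share counts with it.

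**Figure D1:**
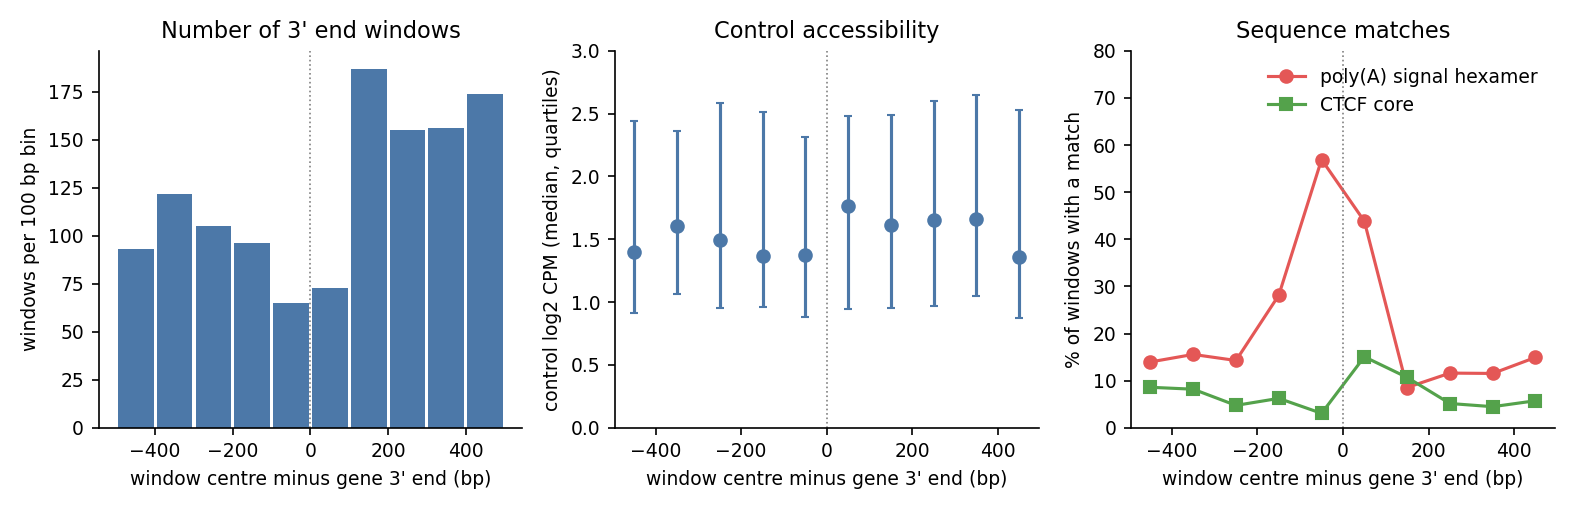
The 1226 windows by the distance of their centre from the gene's 3′ end in bp, in bins of 100 bp, with negative values upstream. The panels show the number of windows, the median (points) and quartiles (bars) of the mean control log2 CPM of tested windows, and the percentage of windows with AATAAA (red circles) or the CTCF core (green squares); AATAAA peaks at 56.9% just upstream of the end and the CTCF core at 15.1% just downstream.

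The poly(A) signal marked the windows centred on the end itself. AATAAA, on either strand and up to 100 bp from the centre, was present in 18.0% of 3′ end windows (Wilson 95% interval 16.0% to 20.3%) and in 14.5% of all windows. The share was 16.6% between genes, inside that interval, and 4.85% at coding promoters. Among 3′ end windows AATAAA reached 56.9% of those in the 100 bp before the end and 43.8% of those in the 100 bp after it, and was at 8.56% from 100 to 200 bp downstream. ATTAAA did not stand out, with 8.40% of 3′ end windows (6.98% to 10.1%) and 8.73% of all windows. Base composition lay between that of promoters and that of the genome's other windows, with a median GC content of 50.9% at 3′ ends, 64.3% at promoters of coding genes and 48.1% over all windows.

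A filter on low counts passed 1115 of the 1226 windows (90.9%), against 87.1% of all windows, and 111 were too low to test. Signal at 3′ ends was low but above that of open chromatin between genes. On the log2 CPM scale (log2 of counts scaled to library size), the median tested 3′ end window stood at 1.54 in control (quartiles 0.95 and 2.51). The median was 3.14 for promoter windows of coding genes, 1.16 for windows between genes and 1.42 for all tested windows. Only 131 of the tested 3′ end windows (11.7%) reached the promoter median.

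The same order held in each control library. The mean level over 3′ end windows was below the mean over promoter windows in each of them, with differences from −1.56 to −0.76 and a mean of −1.38 ± 0.26 log2 CPM (SD, n = 8) in control and −1.40 ± 0.19 in dTAGV-1. The smallest gap came from control replicate 12, and without replicates 11 and 12 of both groups the difference was −1.48 in both. Against windows between genes, 3′ ends were higher in every library of both groups, by 0.34 ± 0.045 in control and 0.34 ± 0.046 in dTAGV-1. These are levels per library and no difference between groups was tested on them.

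**Figure D2:**
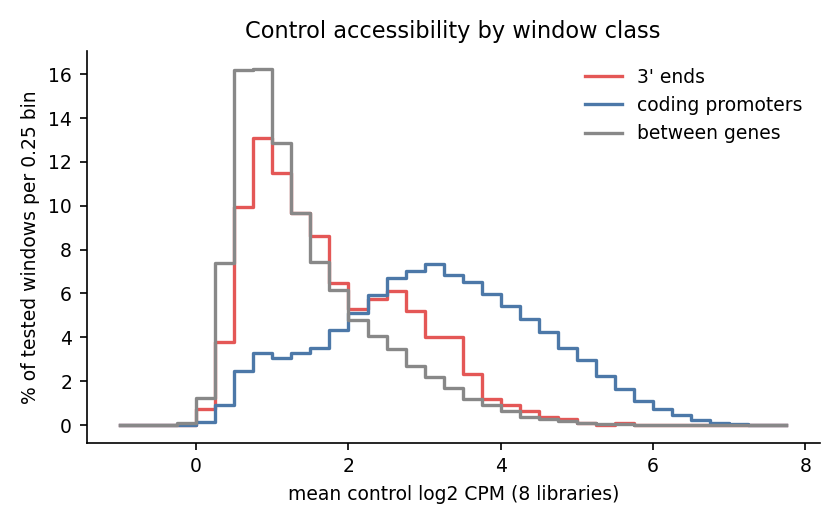
Distribution of mean control log2 CPM (x axis, 8 libraries, bins of 0.25) as the percentage of tested windows of each class (y axis) for 3′ ends (red), promoters of coding genes (blue) and windows between genes (grey). The 3′ end curve peaks in the same bin as that of windows between genes, the one starting at 0.75, but lower (13.1% against 16.3%). It carries a shoulder between 2 and 3.5 that the latter lacks.

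The level changed little with position. The medians of the 100 bp bins lay between 1.36 and 1.76, the highest from 0 to 100 bp downstream, and the quartiles of all bins overlapped. In 109 windows a coding gene of the other strand also ended within 1000 bp of the centre. These windows had a higher median of 2.03, against 1.48 for the others. Their median GC content was also higher, 56.4% against 50.1%, and its part in the level was not tested. On either side of the limits of the rule, windows 401 to 500 bp from the end had a median of 1.37 and those at 501 to 600 bp one of 1.50. Near the other limit, windows 1001 to 1200 bp from a transcript start had a median of 1.88 and those at 801 to 1000 bp one of 2.20.

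For 814 genes both a 3′ end window and a promoter window were tested. Where a gene had more than 1 window of a kind, the most accessible was taken. This raises the promoter value of genes with several promoter windows, and with it the difference below. The promoter was the more accessible in 729 of them (89.6%), by a median of 2.27 log2 CPM. Across these genes the levels at start and end showed no close relation (Pearson −0.087, Spearman −0.093). The genes are not independent points, since all values come from the same 8 control libraries and share their depth, and no p is given. In the separate peak calls of replicates 1 to 8, 966 of the 1226 windows (78.8%, Wilson 95% interval 76.4% to 81.0%) held a summit, against 77.8% of all windows.

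The most accessible 3′ end window was that of HPD, an enzyme of tyrosine breakdown. Its centre lay 43 bp upstream of the end in a UTR, and its control libraries ran from 4.93 through a median of 5.61 to 5.83 log2 CPM, above the promoter median of 3.14 in every library. Next came DENND2A, a regulator of Rab GTPases, whose window 274 bp downstream of the end ran from 4.16 through 5.22 to 5.44 in control. CTDSP1, a phosphatase that acts on the tail of RNA polymerase II, ran from 3.47 through 5.16 to 5.34. The lowest value at each of these 3 windows was control replicate 12. HES7, PRR36, HCFC1, REM2 and ASCL5 completed the 8 highest, with control means between 4.57 and 4.81. HCFC1 encodes HCF-1, the cofactor named above, and its window 63 bp downstream of the end stood at 4.73 ± 0.23 without and 4.67 ± 0.27 under dTAGV-1 (SD, n = 8 each). None of these 8 was called, and their log2 fold changes lay between −0.072 and 0.12.

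Of the 3′ end windows, 87 held the CTCF core up to 100 bp from the centre, or 7.10% (Wilson 95% interval 5.79% to 8.67%). The share was 3.03% over all windows, 3.77% between genes and 1.14% at coding promoters. In 78 of the 87 the match lay within 50 bp of the centre. The share was highest just past the gene end, at 15.1% (11 of 73) from 0 to 100 bp and 10.7% (20 of 187) from 100 to 200 bp. Windows with the core were more accessible, with a median control level of 2.65 against 1.45 without it, and 98.9% of them held a summit of replicates 1 to 8.

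At DENND2A, ASCL5 and DBN1, whose CTCF sites are printed above, control and dTAGV-1 libraries overlapped. DBN1, a protein that binds actin, ran from 3.61 through 4.55 to 4.85 in control and from 4.14 through 4.44 to 4.68 in dTAGV-1. None of the 87 windows was called by edgeR or by DESeq2, a number of windows too small for a call to be likely at the 0.215% called over all windows. At an unadjusted p under 0.05 there was 1 lower and 2 higher, where 1.55% of all tested windows were lower and 1.3% higher. Over all classes, 6101 tested windows held the CTCF core, of which edgeR called 0 and DESeq2 called 1 lower. At an unadjusted p under 0.05, 32 of the 6101 were lower and 136 higher. The lower count is under the share of all tested windows and the higher count over it, and neither difference was tested. The median log2 fold change of the 87 was 0.047, the same as over all tested windows with a CTCF core, and 30 of the 87 were negative.

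**Figure D3:**
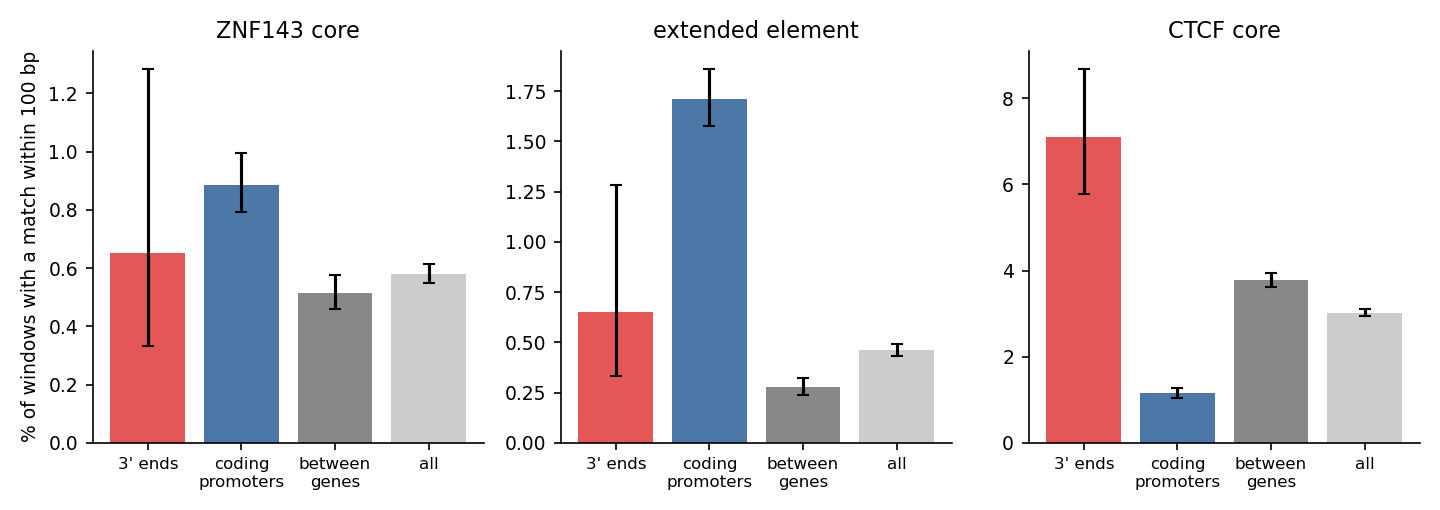
Percentage of windows with a match within 100 bp of the centre (y axes from 0, bars; error bars are Wilson 95% intervals that cover counting error only) for the ZNF143 core, the extended element and the CTCF core. The CTCF core is more frequent at 3′ ends (7.10%) than in the other classes, and the intervals of the ZNF143 core at 3′ ends and over all windows overlap.

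The comparison of dTAGV-1 with control called 4 of the 1115 tested 3′ end windows lower and 0 higher (edgeR quasi-likelihood test, adjusted p under 0.05 over all tested windows). That is 0.359% lower, against 0.213% of all tested windows, where calls in either direction made up 0.215% and higher calls 0.00108%. DESeq2 called the same 4 lower and 0 higher. At an unadjusted p under 0.05, 16 were lower (1.43%, background 1.55%) and 14 higher (1.26%, background 1.3%). In 1 window all 8 dTAGV-1 libraries lay below all 8 controls (0.0897%, background 0.0713%). A count of 4 among 1115 is too small to set 3′ ends apart from that background, and the unadjusted shares were close to it. Without control replicate 12 the number of calls over all windows rose from 397 to 632, while at 3′ ends the same 4 were called. Without replicates 11 and 12 of both groups the same 4 were again called, 0.353% of the 3′ end windows then tested against 0.411% lower over all windows, so the order of the shares turned. The 4 had log2 fold changes of −0.98 at EMP3, −1.80 at IRF3, −0.72 at P4HA2 and −1.68 at XYLT1.

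The changes at 3′ ends were spread like those of all windows. Their median log2 fold change was 0.0082, beside 0.0077 over all tested windows, and 534 were negative (47.9%, against 48.2%). The quartiles were −0.10 and 0.13. The median standard error was 0.22, so that changes well under the sizes called here could not be resolved for a single window.

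**Figure D4:**
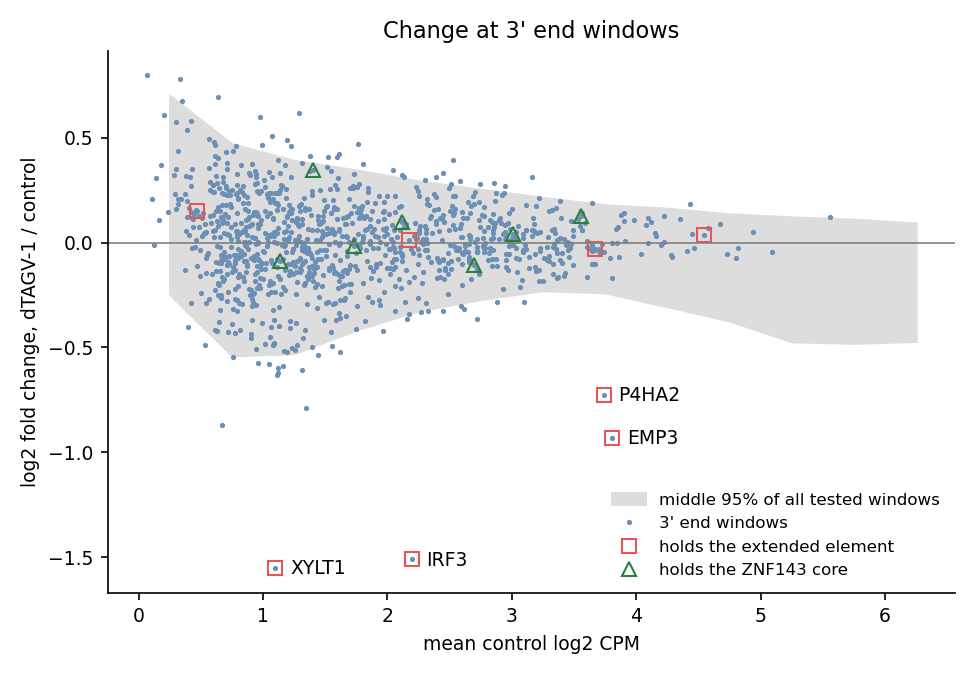
Log2 fold change of dTAGV-1 over control (y axis) against mean control log2 CPM (x axis) for the tested 3′ end windows (points); the grey band holds the middle 95% of all tested windows at the same level. Red squares mark the extended element and green triangles the ZNF143 core; the 4 called windows lie between −0.73 and −1.55, and 4 other windows with the element lie near 0.

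EMP3 encodes a membrane protein of the PMP22 family. Its window, chr19:48330071-48330471, is centred in an intron 282 bp upstream of the gene's end. Counts ran from 28 to 175 per library, 926 in all in control and 491 in dTAGV-1. The control libraries ran from 3.42 through a median of 3.82 to 4.05 log2 CPM, and the dTAGV-1 libraries from 2.76 through 2.91 to 3.16. The groups did not overlap. The level fell from 3.81 ± 0.21 to 2.93 ± 0.15 (SD, n = 8 each), which is −0.93 on the log2 scale of the fit (standard error 0.13, edgeR adjusted p 1.53e-05) and left 52.5% of the control signal. The centre is 1001 bp from the start of an annotated transcript of EMP3, just inside the limit of the rule, and 8762 bp from the start of the gene.

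IRF3 is a transcription factor that switches on type I interferon genes. Its window, chr19:49659737-49660137, is centred in an intron 368 bp upstream of the end and 1066 bp from the nearest transcript start. The control libraries ran from 1.80 through 2.18 to 2.67 log2 CPM and the dTAGV-1 libraries from 0.23 through 0.79 to 1.82. Of the 8 dTAGV-1 libraries, all but replicate 12 lay under the lowest control. The log2 fold change was −1.51 (standard error 0.22, edgeR adjusted p 2.44e-05), from 303 counts in control and 105 in dTAGV-1. The window holds 3 copies of the element, 1 on the plus and 2 on the minus strand, whereas the windows of EMP3, P4HA2 and XYLT1 hold 1 each.

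P4HA2 is a catalytic subunit of collagen prolyl hydroxylase. Its window, chr5:132190177-132190577, lies in a UTR 230 bp upstream of the end and 3191 bp from the nearest start. The control libraries ran from 2.88 through 3.78 to 4.13 log2 CPM and the dTAGV-1 libraries from 1.93 through 3.11 to 3.45. Only 1 dTAGV-1 library lay below every control, because control replicate 12 was low at 2.88. The other controls were at 3.64 or more, above all dTAGV-1 libraries. The log2 fold change was −0.73 (standard error 0.15, edgeR adjusted p 0.00797). Without control replicate 14 the log2 fold change was −0.67 and the call was lost, with an edgeR adjusted p of 0.0513.

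XYLT1 is the xylosyltransferase that starts glycosaminoglycan chains on proteins. Its window, chr16:17101621-17102021, is centred in a UTR 52 bp upstream of the end, the nearest of the 4, and 5400 bp from any transcript start. It was the least accessible of the 4, with 131 counts in all in control and 45 in dTAGV-1, and as few as 3 in a library. The control libraries ran from 0.23 through 1.14 to 1.67 log2 CPM and the dTAGV-1 libraries from −0.90 through 0.073 to 0.42. Of the dTAGV-1 libraries, 6 lay below every control. The log2 fold change was −1.55 (standard error 0.33, edgeR adjusted p 0.012). The call was lost when control replicate 13 or 15 or dTAGV-1 replicate 13, 14 or 15 was left out, with log2 fold changes from −1.46 to −1.42 and edgeR adjusted p from 0.0555 to 0.0716.

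**Figure D5:**
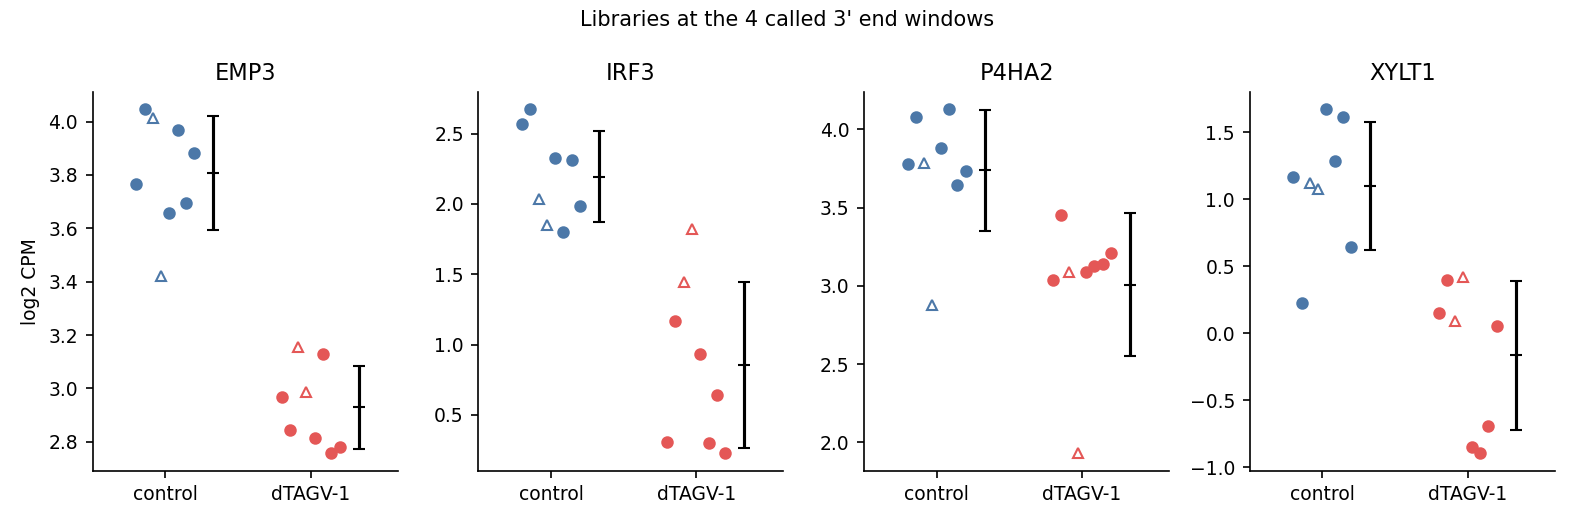
Log2 CPM per library (y axes, each with its own range) in control (blue) and dTAGV-1 (red) at the 4 called windows; open triangles are replicates 11 and 12, and bars give mean ± SD over 8 libraries. The groups do not overlap at EMP3, and they do at P4HA2 through control replicate 12.

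All 4 windows were centred upstream of the gene end, out of 443 tested there. Downstream, 0 of 672 were called by edgeR or by DESeq2, and at an unadjusted p under 0.05 there were 5 lower and 7 higher. Upstream there were 11 lower and 7 higher at that limit, and over all tested windows 1.55% were lower and 1.3% higher. With 0.213% of all tested windows called lower, few or no calls would fall among as many windows on either side, and the difference between the sides was not tested. The windows of EMP3 and IRF3 lay close to annotated starts of transcripts within the gene. When windows within 2000 bp of a start were also left out, P4HA2 and XYLT1 remained, 2 of 882 tested.

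The promoter windows of these genes were not called. For EMP3, IRF3 and P4HA2, 9 promoter windows were tested, 3 each, and their log2 fold changes lay between −0.11 and 0.12 (edgeR adjusted p 0.999991 for each), and none of XYLT1 was among the windows tested. The nearest tested window to that of EMP3, 2663 bp away, stood at 5.43 log2 CPM in control and at 5.34 under dTAGV-1. The reverse case was also examined, in which the promoter lost accessibility. Of 233 genes with a promoter window called lower, 8 had a tested 3′ end window, and 0 of these were called by either tool, with 1 lower at an unadjusted p under 0.05. That was ZNF24, a zinc finger repressor, at −0.57 on the log2 scale at the promoter (edgeR adjusted p 0.0391) and −0.79 at the 3′ end (standard error 0.30, edgeR adjusted p 0.999991). The median over the 8 was 0.031. Over all tested windows 0.213% were called lower, and 1.55% were lower at an unadjusted p under 0.05. With 8 windows a call was not likely, so the count of 0 says little about such genes.

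The extended element lay up to 100 bp from the centre in 8 windows of 1226 (0.653%, Wilson 95% interval 0.331% to 1.28%), and over all windows in 0.462%. All 8 were tested and 4 were called, which are the 4 lower windows. No 3′ end window without it was called. Since the element was picked from the called windows, their share is a description. Outside 3′ ends, in windows that played no part in that choice, it was present in 257 of 391 lower windows (65.7%) and in 668 of 183532 windows not called (0.364%). Most windows with it were nevertheless not called: of 933 tested over all classes, 261 were lower (28.0%) and 851 had a negative log2 fold change.

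At the 4 windows with the element that were not called, the groups of libraries overlapped. RTN2, a reticulon of the endoplasmic reticulum, ran from 3.93 through 4.64 to 4.80 log2 CPM in control and from 4.30 through 4.65 to 4.81 in dTAGV-1. TICAM1, the adaptor TRIF of Toll-like receptor signalling, ran from 2.80 through 3.81 to 4.05 and from 3.33 through 3.75 to 4.03. ENTPD7, a nucleotide phosphatase, ran from 1.77 through 2.21 to 2.37 and from 1.65 through 2.21 to 2.49. These 3 windows were at least as accessible in control as that of XYLT1, and 2 of them were near the level of EMP3 or above it. Their log2 fold changes were 0.034, −0.030 and 0.014, with standard errors of 0.14, 0.14 and 0.16. IL17D, a cytokine, was low at 0.47 ± 0.52 in control (SD, n = 8), and its log2 fold change of 0.15 had a standard error of 0.30. Farther from the centre, the windows of NSD1, a histone methyltransferase, and C19orf67 also held the element, with log2 fold changes of −0.14 and 0.077 that were not called.

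The letters inside and after the element varied among these windows. The 2 free bases were TT at EMP3, P4HA2 and XYLT1, and AC in all 3 copies at IRF3. Of the windows not called, TICAM1 had TT, and RTN2 held 2 copies in its window, with AG in the one printed above and TT in the other. Outside 3′ ends, windows with TT were called lower in 122 of 344 (35.5%), those with AC in 37 of 166 (22.3%), and those with neither in 101 of 422 (23.9%). Where AG followed TCCC, as it does at P4HA2, XYLT1 and TICAM1, in 2 of the 3 copies at IRF3 and in 1 of the 2 at RTN2, 32.8% of 613 were lower, and where it did not, as at EMP3, 17.9% of 312. These groups also differed in control level, with medians of 2.49 for TT, 4.51 for AC and 4.19 for neither, and its part in the shares was not tested.

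The ZNF143 core itself lay up to 100 bp from the centre in 8 windows or 0.653% (0.331% to 1.28%), against 0.580% of all windows, and no 3′ end window held both it and the element. Of the 8, 7 were tested and 0 were called by edgeR or DESeq2, nor was any at an unadjusted p under 0.05. Over all tested windows 0.213% were called lower, and 1.55% were lower and 1.3% higher at an unadjusted p under 0.05. With 7 windows a call was not likely, so the count of 0 says little about the core at 3′ ends. C1QTNF5, a secreted protein with a C1q domain, ran from 3.23 through 3.59 to 3.79 log2 CPM in control and from 2.83 through 3.78 to 4.10 in dTAGV-1. CMTM5 ran from 2.76 through 2.91 to 3.30 and from 2.75 through 2.88 to 3.43. PAAF1, a factor that binds proteasomal ATPases, ran from 1.85 through 2.76 to 3.10 and from 1.74 through 2.69 to 3.11. The groups overlapped at each. ITGAX, ANKRD45, TTLL12 and NEK10 were the others, and over the 7 the log2 fold changes lay between −0.11 and 0.35. Over all classes, 52 of 1099 tested windows with the core were lower (4.73%). Of these 52, 32 also held the element, out of 87 tested windows with both (36.8%). The 4.73% is therefore not a like comparison for 3′ end windows, which held the core without the element.

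None of the 4 called windows held the core in full. The best match had 1 mismatch at EMP3 and XYLT1 and 2 at IRF3 and P4HA2. Such partial matches are common: 14.1% of 3′ end windows and 12% of all windows have a match with at most 1 mismatch, and 69.7% and 66.8% with at most 2. At IRF3, P4HA2 and XYLT1 it begins inside a copy of the element on the same strand and runs on past it. Capitals mark the partial core, and the letters actaca stand ahead of it.
P4HA2, chr5:132190341-132190370, plus strand: aactacatttCCCAGATTCCcttatcagct
XYLT1, chr16:17101870-17101899, minus strand: gactacatttCCCAGACTGCcttgctctta
IRF3, chr19:49659953-49659982, minus strand: aactacaactCCCAGCAGCCctaggcctat

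Among windows not called, the 6 lower and 6 higher with the smallest p-values at or above the median abundance were GZMM, METTL6, CDK3, CCDC17, SSPN and FES, and CFTR, MAPKAPK2, PI4K2A, AP2B1, LANCL2 and SLC49A3. The log2 fold changes of the first 6 lay between −0.41 and −0.28, and all had an edgeR adjusted p of 0.999991. CFTR, a chloride channel whose mutation causes cystic fibrosis, had the smallest adjusted p of the 3′ end windows not called. Its window is centred 12 bp past the end and holds a CTCF core. The control libraries ran from 0.98 through 1.30 to 1.56 log2 CPM and the dTAGV-1 libraries from 1.20 through 1.97 to 2.20, with 6 of the 8 above every control. The log2 fold change of 0.62 (standard error 0.20, edgeR adjusted p 0.762) was not called. The other 5 had log2 fold changes between 0.29 and 0.47.

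No window of the gene lists examined was called. Over all tested windows 0.215% were called, so a call was not likely among so few windows. At an unadjusted p under 0.05, 1.55% of all tested windows were lower and 1.3% higher. Of 89 cytosolic ribosomal protein genes, 11 had a 3′ end window (12.4%, against 5.37% of all coding genes). Of their 18 tested windows 14 had a negative log2 fold change, with a median of −0.069, but 0 were called and 0 reached an unadjusted p under 0.05 in edgeR. Over all tested windows 48.2% were negative. The 18 windows come from only those 11 genes, and the difference was not tested. RPS23, a protein of the small ribosomal subunit, had the smallest p of these, with control at 2.17 ± 0.42 log2 CPM and dTAGV-1 at 1.83 ± 0.24 (SD, n = 8 each, edgeR adjusted p 0.999991). Genes with ZNF symbols, which encode zinc finger proteins, had 17 tested windows, mitochondrial ribosome, respiratory chain and import genes 17, and solute carriers 23. Their medians were 0.052, −0.066 and 0.14, and 0 were called in each, with 1, 0 and 1 at an unadjusted p under 0.05. HOX genes had 4 tested windows, histone genes 1 and the genes of mRNA 3′ end processing and termination 2, also with 0 called and 0 at an unadjusted p under 0.05. The last were led by PAPOLA, the main poly(A) polymerase, with control at 1.64 ± 0.29 and dTAGV-1 at 1.50 ± 0.26 (SD, n = 8 each).

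Widening the distance from the gene end to 1000 bp added 3 called windows to the 4. That made 7 of 2267 tested, or 0.309%, beside 0.359% for the rule used and 0.213% of all tested windows called lower. BCAT2, a transaminase of branched-chain amino acids, lay 506 bp upstream of the end, just beyond the limit, and fell by 1.23 on the log2 scale (standard error 0.14, edgeR adjusted p 1.29e-07). SIGLEC1, a sialic acid receptor, lay 890 bp upstream with a log2 fold change of −1.47. Both windows hold the extended element within 100 bp of the centre. DYRK1B, a kinase, lay 707 bp downstream with a log2 fold change of −0.84 and holds neither the element nor the core.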

How the data were processed

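Reads were handled by the authors with cutadapt 1.8.1, Bowtie2 2.4.4 and SAMtools 1.9 on genome build hg38, per the submitters' processing notes. The peak caller, the counting tool and any shift for Tn5 are not given in the sources used here. The deposited table holds whole-number counts per window of 401 bp for 16 libraries, per the file headers, and 0 columns were left unused. It and the summit list also carry a −log10 value per peak from the authors, starting at 2 and used here only to describe the files. The test was that of edgeR 4.0.16 in R 4.3.3 (filterByExpr, TMM, quasi-likelihood test, no covariate) over all 185040 windows that passed, with Benjamini-Hochberg adjustment and a threshold of 0.05, after a test on simulated data. DESeq2 1.42.0 served as an alternative. Log2 CPM used TMM and a prior count of 2. Standard errors were derived from the test statistic.

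Over the 56 pairs of libraries of 1 group, the chi-square of the counts per degree of freedom lay between 1.63 and 5.01, so no library was a duplicate. Annotation came from GENCODE release 44. Matches to the ZNF143 and CTCF cores and the hexamers were sought on either strand up to 100 bp from the centre. Intervals and totals cover counting error only. A promoter window had its centre within 500 bp of a start of a coding gene.

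The windows named are those called, the 6 lower and 6 higher with the smallest p at or above the median abundance among those not called, the 8 with the highest control level, those with the ZNF143 core, and the one with the smallest p in each gene list. The members, lists and rules were chosen with earlier results of these data known. The windows printed for the extended element and the CTCF core were added after their values were seen. Alternatives comprised other scaling, no filter, DESeq2, a replicate block, libraries left out, other distances in the rule and other motif distances.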

Additional observations from a re-analysis of the deposited data

Results flagged for a closer look

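In 94 groups of 8 libraries, each for 1 window or 1 summary value, 18 single libraries stood farther from the rest than Dixon's 95% limit allows. Chance gives about 1 such value in 20 groups. Of the 18, 12 were control replicate 12, the shallowest library, and in 9 of these it was the low one.

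At the windows with the highest control level, control replicate 12 was low at HPD (4.93 log2 CPM, others 5.43 to 5.83), CTDSP1 (3.47, others 4.89 to 5.34), PRR36 (4.09, others 4.77 to 5.10) and ASCL5 (3.61, others 4.39 to 5.04). It was also low at P4HA2 (2.88), PI4K2A (1.69), AP2B1 (2.72) and PAAF1 (1.85), and high at FES (3.14). In the summaries over all 3′ end windows it was high for the difference from coding promoters (−0.76, others −1.56 to −1.37) and for the percentage of counts in 3′ end windows (0.581%, others 0.458% to 0.498%). It was low for the percentage of counts in the most accessible decile (31.8%).

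Replicate 12 of dTAGV-1 was low at P4HA2 (1.93, others 3.04 to 3.45) and PRR36 (4.26), and replicate 11 of dTAGV-1 was low at ASCL5 (3.92). The other 3 were control replicate 10 at CCDC17 (0.94), dTAGV-1 replicate 16 at FES (1.32) and control replicate 16 at NEK10 (−0.058), all low.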

How the results depend on the processing

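The 4 calls at 3′ ends were made under RLE scaling, DESeq2, no filter, the replicate block, and without replicates 11 and 12 of both groups. Leaving out 1 library at a time gave 3 to 4 calls at 3′ ends, and over all windows 321 to 632 in either direction, 318 to 627 lower and 0 to 5 higher. EMP3 and IRF3 were called each time, while P4HA2 lost its call once and XYLT1 in 5 cases. DESeq2 called 4 windows higher over all windows. Without replicates 11 and 12 of both groups, 767 lower and 14 higher made 781 over all windows.

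The labels tie the replicate numbers to no shared culture or day. Same-numbered libraries correlated between 0.028 and 0.34 in their deviations from the group means, above 0.1 for 5 of 8 numbers, and 4 of 8 were each other's best partner, a hint of pairing in the data but not for every number, so the numbers were not used as pairs. The fit with the replicate block called 742 windows lower and 11 higher, 753 in all. Lower calls were then 0.401% of all windows, above the 0.359% at 3′ ends, and the sign at ANKRD45 changed to 0.013.

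Other distances in the rule gave 2 calls of 512 tested within 250 bp of the gene end (0.391%), 7 of 2267 within 1000 bp (0.309%), and 2 of 882 more than 2000 bp from every start (0.227%), beside 0.359% for the rule used and 0.213% of all windows. The excess of log2 CPM over windows between genes was 0.43 with no filter and 0.23 with the stricter limit on starts. Within 50 bp of the centre the ZNF143 core was in 0.245% of the windows, AATAAA in 7.10% and ATTAAA in 2.85%, and over the whole window AATAAA in 42.7% and ATTAAA in 24.5%. A looser ZNF143 core, chosen after the data were seen, was in 1.88%.

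For 43 windows and 903 alternative values, 866 kept sign and call, 6 lost the call and 31 changed sign, all at 9 windows that were not called. ASCL5 was at −0.011 without replicates 11 and 12. With 1 library left out, the 9 ranged from −0.12 to 0.072 (ANKRD45), −0.015 to 0.15 (ASCL5), −0.030 to 0.091 (CMTM5), −0.056 to 0.13 (CTDSP1), −0.13 to 0.0065 (DENND2A), −0.058 to 0.062 (ENTPD7), −0.088 to 0.042 (HES7), −0.022 to 0.070 (RTN2) and −0.098 to 0.026 (TICAM1). The cause was not tested.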
